A study of Mus musculus with 16 samples.

Results

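The 9 genes described here encode transcription factors linked to self-renewal of blood stem cells and of leukaemia: Hoxa7, Hoxa9, Hoxa10 and Hoxb4 of the HOX clusters, their partner Meis1, and Mecom, Hlf, Myb and Mycn. They were taken by gene symbol from a count table of 55487 genes, and all 9 were found. The table holds 16 RNA-seq libraries of mouse leukaemia cells that express the fusion CBFB::MYH11, the product of inv(16), together with GFP. Per the design text, the cells were transduced with a doxycycline-inducible shRNA against MYH11 and transplanted into congenic mice, and GFP-positive cells were sorted at harvest. Bone marrow control and spleen control (3 libraries each) came from mice drinking 5% sucrose for 7 days. Bone marrow doxycycline and spleen doxycycline (3 libraries each) came from mice drinking doxycycline at 3 mg/ml in 5% sucrose for 7 days. Secondary disease (4 libraries) came from spleens of a separate cohort kept on doxycycline until signs of fatal disease. All groups thus carry the fusion and GFP. The labels of the controls name only fusion-expressing primary cells, whereas the design text has the shRNA in every transplanted cell. No group received doxycycline without the shRNA, so drug and knockdown cannot be told apart. The labels number the replicates without saying that they came from separate animals, so p-values cover only how far these samples differ, which may be technical.

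As background, HOX proteins are homeodomain factors encoded in 4 chromosomal clusters. The later-numbered Hoxa genes, above all Hoxa9, are high in stem cells and in many acute myeloid leukaemias, where HOXA9 binds DNA with MEIS1 and a PBX protein. MEIS and PBX belong to the TALE homeodomain class and also act without HOX partners. Leukaemias of the core binding factor, the class that holds inv(16), are known for low HOX expression. HLF and MECOM mark and maintain the most primitive stem cells, MYB is needed for definitive blood formation, and MYCN is a member of the MYC family. The question here was which of these factors this leukaemia expressed at all, and how their levels lay over the 5 groups.

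Total expected counts per library lay between 12259707 and 39419370. The lowest was secondary disease replicate 4, a library that stood apart: its chi-square per degree of freedom against the other replicates of its group was 240 to 265, compared with 8.12 to 53.0 for the other pairs outside spleen doxycycline. The 3 spleen doxycycline libraries also differed from each other, with 242 to 523. Of the myeloid progenitor markers, Kit measured 14.8 to 95.2 TPM (a level scaled to transcript length and library size), while Cd34 stayed at or under 0.48 TPM and Cebpa under 2 TPM in every library. Mpo ran from 0.12 to 44.3 TPM. Cbfb, the gene of the 5′ part of the fusion, measured 54.2 to 144 CPM (counts scaled to library size) and Myh11 0 to 9 counts per library, and neither measures the fusion itself. In bulk RNA, fewer cells of a type and less RNA per cell cannot be told apart.

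Of the 9 factors, 3 were expressed at a group mean of at least 1 TPM, and these were the same 3 in each of the 5 groups: Myb, Meis1 and Hlf. Myb was the most abundant, with group means of 92.3 TPM in bone marrow control, 66.0 in bone marrow doxycycline, 93.0 in spleen control, 66.6 in spleen doxycycline and 76.9 in secondary disease. Meis1 had group means of 23.3, 6.69, 18.4, 15.2 and 30.1 TPM in the same order. Hlf had 8.72, 14.5, 14.0, 5.80 and 11.3 TPM. These TPM means describe levels and are not read as changes between groups, which are given in CPM below. TPM has a fixed total per library, and 10 erythroid genes summed to 154349 to 184755 TPM in bone marrow doxycycline. In bone marrow control they summed to 7477 to 15981 TPM. By the mean over groups, Myb ranked 1815 of 55487 genes, Meis1 5865 and Hlf 7488. The other 6 factors had no group mean above 0.34 TPM. The count of 3 expressed factors per group was also 3 at a level of 0.5 or 2 TPM, and with any single library left out.

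**Figure D1:**
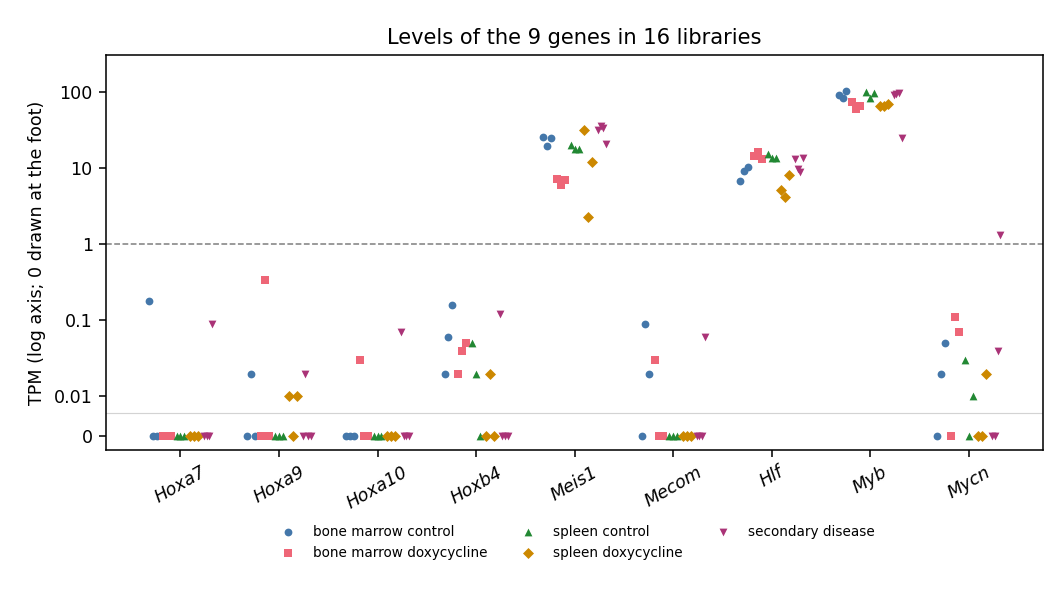
Level of each of the 9 factors in every library, in TPM on a log axis, with values of 0 drawn at the foot and a dashed line at 1 TPM. Meis1, Hlf and Myb lie above the line in all 16 libraries, and of the other 6 only Mycn crosses it, in secondary disease replicate 4 at 1.31 TPM.

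The 4 HOX factors were near or at 0 throughout. Hoxa9 (ENSMUSG00000038227, chromosome 6, 52223100 to 52231089, minus strand, GRCm38), the HOX gene most tied to myeloid leukaemia, held 9 expected counts over all 16 libraries and was at 0 in 11 of them. Its highest value was 5 counts, in bone marrow doxycycline replicate 2. Its neighbours Hoxa10 (52231197 to 52240854) and Hoxa7 (52214491 to 52221854) held 3 and 4 counts in all, never more than 2 in a library, and both were at 0 in 14 libraries. Hoxb4 (ENSMUSG00000038692, chromosome 11, 96318267 to 96321638, plus strand), which expands stem cells when overexpressed, held 25 counts spread over 10 libraries, at most 6 in any library. The limit that a count of 0 allows, taken as 3 counts, was 0.0737 to 0.260 CPM depending on the library. Hoxb4 exceeded 3 counts in 2 libraries, Hoxa9 in 1 and the other 2 HOX factors in none, and the 4 were not compared between groups.

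The other genes of the 4 clusters were as low in 15 of the 16 libraries. Of 39 HOX genes, 18 had no count in any library, and 0 of the 35 other HOX genes passed the filter on low counts. Summed over the 39 genes, 15 libraries held 0 to 21 counts each, or 0 to 0.869 CPM. Secondary disease replicate 4 held 100 counts, or 8.67 CPM. In that library 9 HOX genes exceeded 3 counts, led by Hoxb9 with 32 counts (1.15 TPM), Hoxc8 with 15 and Hoxa5 with 11; they are named here after their values were seen. None of the 4 HOX factors was among these 9, and Hoxa9, Hoxa10 and Hoxb4 were at 0 in that library.

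**Figure D2:**
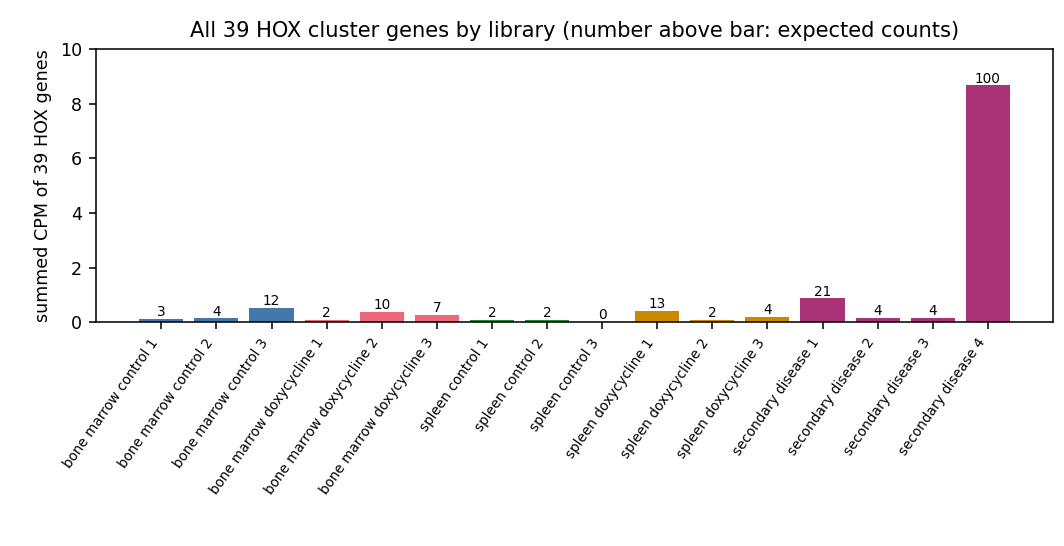
Summed CPM of the 39 genes of the 4 HOX clusters in each library, with the summed expected counts above each bar. Secondary disease replicate 4 reaches 8.67 CPM from 100 counts, and the other 15 libraries lie at or below 0.869 CPM.

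Mecom (ENSMUSG00000027684, chromosome 3, 29951296 to 30548008, minus strand), which encodes the EVI1 proteins of stem cells and of poor-risk leukaemia, held 8 counts in all and at most 3 in a library. It was at 0 in all 6 spleen libraries of the 7-day groups. Mycn (ENSMUSG00000037169, chromosome 12, 12936093 to 12941914, minus strand) had 0 to 4 counts in 15 libraries and 38 counts, 3.30 CPM, in secondary disease replicate 4. The 6 silent factors did not pass the filter on low counts and have no test in the model used for the results. When edgeR was run without that filter, none of the 6 was called in any comparison. Mycn had the lowest adjusted p, 0.355 for secondary disease against spleen control and 0.347 against spleen doxycycline, and both values rest on replicate 4.

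The promoters of the 3 expressed factors and of Hoxa9 are shown to set expressed genes beside the silent HOX gene best known in leukaemia. Each is 250 bases before to 50 after the start that RefSeq gives on GRCm38.p6, 5′ to 3′ on the strand of the gene. For Hoxa9 the RefSeq start lies inside the GENCODE gene given above, not at its end. Capitals mark a match to a motif searched on both strands: TGTGGT for RUNX, the partner of CBFB, TGACAG for MEIS, AGATAA for GATA and AACGG for MYB.
Meis1 (chr11:19018920-19019219, minus strand): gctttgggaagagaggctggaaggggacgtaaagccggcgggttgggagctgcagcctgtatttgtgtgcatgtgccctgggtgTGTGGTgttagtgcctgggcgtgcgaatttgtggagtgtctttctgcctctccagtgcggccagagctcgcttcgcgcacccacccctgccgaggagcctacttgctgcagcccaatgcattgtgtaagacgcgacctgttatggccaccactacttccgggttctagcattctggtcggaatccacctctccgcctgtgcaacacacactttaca
Hlf (chr11:90390868-90391167, minus strand): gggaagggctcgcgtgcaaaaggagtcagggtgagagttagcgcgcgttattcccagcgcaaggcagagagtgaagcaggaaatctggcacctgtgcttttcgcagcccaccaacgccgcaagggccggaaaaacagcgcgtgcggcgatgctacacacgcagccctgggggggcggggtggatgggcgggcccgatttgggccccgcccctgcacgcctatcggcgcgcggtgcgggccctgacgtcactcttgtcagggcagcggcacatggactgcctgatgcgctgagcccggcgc
Myb (chr10:21160935-21161234, minus strand): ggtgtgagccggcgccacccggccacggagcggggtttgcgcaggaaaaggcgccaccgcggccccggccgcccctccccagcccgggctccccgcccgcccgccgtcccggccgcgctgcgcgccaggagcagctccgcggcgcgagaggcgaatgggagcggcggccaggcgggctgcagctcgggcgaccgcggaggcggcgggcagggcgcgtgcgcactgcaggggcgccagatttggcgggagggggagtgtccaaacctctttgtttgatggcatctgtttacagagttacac
Hoxa9 (chr6:52227321-52227620, minus strand): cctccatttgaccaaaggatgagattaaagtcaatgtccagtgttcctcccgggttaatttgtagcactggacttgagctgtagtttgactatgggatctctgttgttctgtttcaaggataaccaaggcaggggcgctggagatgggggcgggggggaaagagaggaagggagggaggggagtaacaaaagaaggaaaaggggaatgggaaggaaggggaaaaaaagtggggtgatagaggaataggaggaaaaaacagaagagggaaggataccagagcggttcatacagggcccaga

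The Meis1 promoter held the RUNX letters once, at bases 85 to 90 of the window, and none of the other motifs. Hlf, Myb and Hoxa9 held none of the 4 motifs in these windows. Among 32851 promoters of the same length, 16.8% held the RUNX letters, 19.2% the MEIS letters, 11.2% the GATA letters and 17.4% the MYB letters. The windows held 40 CpG dinucleotides in Myb, 30 in Hlf, 15 in Meis1 and 4 in Hoxa9, beside a median of 7 over all promoters. The other silent factors held 9 in Hoxa7, 14 in Hoxb4, 14 in Mycn, 12 and 21 at the starts of Hoxa10 and 19 and 9 at those of Mecom, so expressed and silent factors overlapped. A match describes letters, not a bound site. Promoters of all 9 factors were found in the RefSeq table, and Hoxa10 and Mecom each have a second start there.

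No factor passed the test in any of the 6 comparisons: 0 of the 3 tested members were called with edgeR at an adjusted p under 0.05. Of all 14435 tested genes, 6.57% were called for bone marrow doxycycline against control (3.96% higher, 2.61% lower), and 0.741% for spleen doxycycline against control (0.568% higher, 0.173% lower). The 949 genes called in bone marrow became 23 to 232 with any 1 of the 6 bone marrow libraries left out. For secondary disease, 2.03% were called against spleen control (0.748% higher, 1.28% lower) and 0.928% against spleen doxycycline (0.222% higher, 0.707% lower). Spleen control against bone marrow control gave 0.187% (0.0762% higher, 0.111% lower). The difference between the doxycycline effects of both tissues gave 0.0485% (0.0277% higher, 0.0208% lower). At an unadjusted p under 0.05, edgeR counted 2 members in bone marrow (Meis1 lower, Hlf higher). Hlf alone was counted in spleen (lower), in secondary disease against spleen doxycycline (higher) and in the difference between tissues. By p from edgeR, Meis1 and Hlf ranked 1711 and 1738 of the 14435 genes in bone marrow. Hlf ranked 637 in spleen, 991 in secondary disease against spleen doxycycline and 70 in the difference between tissues. The share of all genes at an unadjusted p under 0.05 was not counted, so such counts, here and for the lists below, have no background. The Wald test of DESeq2 called Meis1 and Hlf in bone marrow, Hlf in the difference between tissues, and no member in the other 4 comparisons. That test called 13.8% of all genes in bone marrow and 1.73% in the difference between tissues. Values below are CPM scaled by the TMM method of edgeR, and a log2 fold change is given ± its approximate SE. How often groups did not overlap among all genes was not counted, so a lack of overlap below is a description only.

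**Figure D3:**
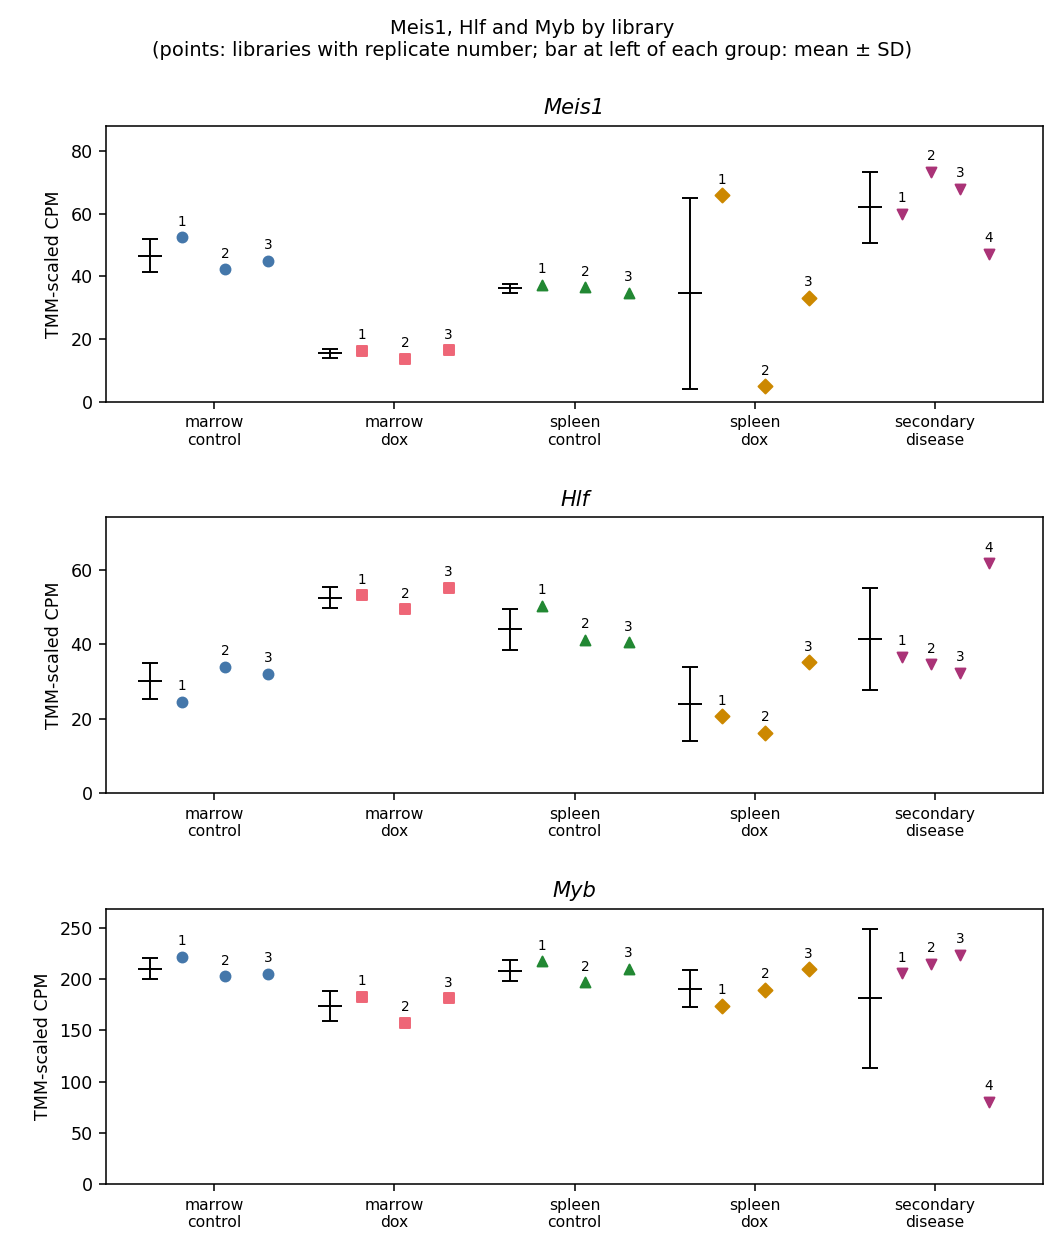
TMM-scaled CPM of Meis1, Hlf and Myb in each library, with the replicate number above each point and the mean ± SD at the left of each group (n = 3, secondary disease n = 4; dox stands for doxycycline). Meis1 is lowest in spleen doxycycline replicate 2 at 4.87 CPM and in bone marrow doxycycline, and secondary disease replicate 4 lies apart for Hlf and Myb.

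Meis1 (ENSMUSG00000020160, chromosome 11, 18879817 to 19018985, minus strand) encodes the TALE factor that stabilises HOX and PBX on DNA and is needed for stem cells and megakaryocytes. In bone marrow it measured 52.4, 42.2 and 44.9 CPM in the controls and 16.2, 13.7 and 16.4 CPM with doxycycline. Every doxycycline library lay below every control, and the groups did not overlap. The means were 46.5 ± 5.25 (SD, n = 3) and 15.4 ± 1.52 (SD, n = 3), a log2 fold change of -1.59 ± 0.55 that did not pass with edgeR (adjusted p = 0.101). The 95% interval of the log2 fold change ran from -2.78 to -0.41. In a model of the 6 bone marrow libraries alone, which takes its spread from them, the same difference passed (log2 fold change -1.58, edgeR adjusted p = 3.23e-06). That model called 36.6% of all genes tested.

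In spleen the 3 control libraries stood close together for Meis1, at 37.4, 36.4 and 34.7 CPM. The doxycycline libraries held 65.8, 4.87 and 33.0 CPM. Replicate 1 lay above every control and replicate 2 far below, so the groups overlapped. The log2 fold change was -0.06 ± 0.54 (edgeR adjusted p = 0.983, 95% interval -1.21 to 1.09). Without spleen doxycycline replicate 2 it turned to 0.45 (adjusted p = 0.578), and without replicate 1 it was -0.94 (adjusted p = 0.310).

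Secondary disease had the highest mean level of Meis1, with libraries at 59.8, 73.3, 67.8 and 47.1 CPM, a mean of 62.0 ± 11.4 (SD, n = 4). All 4 libraries lay above all 3 spleen controls. Against spleen control the log2 fold change was 0.78 ± 0.51 (edgeR adjusted p = 0.545), and against spleen doxycycline, which overlapped, 0.84 ± 0.51 (adjusted p = 0.434). Without replicate 4 the group mean was 67.0 ± 6.75 CPM (SD, n = 3), and the log2 fold change against spleen control 0.89. The difference from spleen control passed with only the 7 libraries of these groups in the model (edgeR adjusted p = 0.0468), which called 3.07% of genes.

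Spleen control was below bone marrow control for Meis1 without overlap, by a log2 fold change of -0.36 ± 0.54 (edgeR adjusted p = 1). With only the 6 control libraries in the model it passed (adjusted p = 0.0310), where 14.7% of genes were called. The 10 mature neutrophil genes summed to 2686 to 3712 TPM in bone marrow control and 147 to 468 in spleen control. The 8 myeloid progenitor genes summed to 86.3 to 195 TPM and 36.1 to 48.2 TPM. The part of these lists in the differences between the control tissues, for Meis1 and for Hlf, was not tested. The doxycycline effect in spleen minus that in bone marrow was 1.53 ± 0.77 (adjusted p = 0.700). Without spleen doxycycline replicate 2 it was 2.05 ± 0.33 and passed (adjusted p = 0.00415), while without replicate 1 it was 0.66 (adjusted p = 0.882). In order of mean CPM, secondary disease came first, followed by bone marrow control, spleen control, spleen doxycycline and bone marrow doxycycline. The only neighbours in that order whose ranges did not overlap were bone marrow control and spleen control.

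Sums of marker genes of other cell types also differed between these libraries. The 10 erythroid genes (haemoglobins, Alas2 and others; all 10 at 1 TPM or more in each group, none at 0) summed to 7477 to 15981 TPM in bone marrow control and 154349 to 184755 in bone marrow doxycycline. In spleen control the sum was 10887 to 16199 TPM, and in spleen doxycycline 16420, 227308 and 112027 TPM for replicates 1 to 3. With edgeR, 9 of the 10 erythroid genes rose in bone marrow and 4 of the 10 in spleen. Of all genes tested, 3.96% and 0.568% were called higher there. With each library of the groups left out in turn, Hba-a1 was called in 5 of 6 models in bone marrow and 1 of 6 in spleen. The library with the highest erythroid sum had the lowest Meis1. The 9 megakaryocyte and platelet genes summed to 292 to 436 TPM in bone marrow control, 68.9 to 104 in bone marrow doxycycline, 299 to 367 in spleen control and 540.0, 28.0 and 206 in the spleen doxycycline libraries. In this list Pf4, Ppbp and Vwf, which define platelets, were at or under 2.21 TPM in every library, so the sum rests mainly on Itga2b, Treml1 and Gp1ba. In secondary disease the erythroid sum was 10873 to 24955 TPM and the megakaryocyte sum 346 to 363. The 7 endothelial genes, of which 2 had a group mean of at least 1 TPM, summed to 294 to 440 TPM in bone marrow control and 170 to 179 in bone marrow doxycycline. In spleen they summed to 424 to 438 TPM in controls and 426, 69 and 184 with doxycycline. In the endothelial list Cdh5, Emcn and Tie1 were at or under 0.66 TPM in every library, and the sum rests mainly on Egfl7, at 66.1 to 431 TPM. At an unadjusted p under 0.05, edgeR counted Esam as higher with doxycycline in both tissues and 0 endothelial genes as lower. The mature neutrophil genes summed to 2686 to 3712 TPM in bone marrow control, 721 to 1538 in bone marrow doxycycline and 7.58 to 139 in secondary disease. The part of any of these lists in the Meis1 values was not tested.

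Hlf (ENSMUSG00000003949, chromosome 11, 90336536 to 90390895, minus strand) encodes a bZIP factor of the PAR family, used as a marker of the most primitive stem cells. Its pattern differed from that of Meis1: in bone marrow the controls measured 24.6, 33.9 and 32.0 CPM and the doxycycline libraries 53.1, 49.4 and 55.2 CPM. All 3 doxycycline libraries were above all controls. The means were 30.2 ± 4.91 and 52.6 ± 2.93 (SD, n = 3 each), a log2 fold change of 0.80 ± 0.28 that did not pass with edgeR (adjusted p = 0.103, 95% interval 0.20 to 1.40). It passed in a model of the bone marrow libraries alone (edgeR adjusted p = 0.000472, with 36.6% of genes called). It also passed without secondary disease replicate 4 (edgeR adjusted p = 0.0274, with 17% of genes called) and in DESeq2 (adjusted p = 0.0448, with 13.8% of genes called).

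In spleen Hlf lay the other way: 50.4, 41.1 and 40.5 CPM in controls and 20.6, 16.2 and 35.2 CPM with doxycycline. The groups did not overlap, and replicate 3 of the doxycycline group was nearest to the controls. The means were 44.0 ± 5.56 and 24.0 ± 9.90 (SD, n = 3 each), a log2 fold change of -0.87 ± 0.28 (edgeR adjusted p = 0.168, 95% interval -1.47 to -0.27). Without secondary disease replicate 4 in the model the log2 fold change was the same to 2 decimals and passed (adjusted p = 0.0413), with 5.37% of genes called.

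The doxycycline effect on Hlf in spleen minus that in bone marrow was -1.67 ± 0.40 on the log2 scale and did not pass with edgeR (adjusted p = 0.168, 95% interval -2.52 to -0.83). DESeq2 called it (adjusted p = 0.00856, with 1.73% of genes called), as did edgeR without secondary disease replicate 4 (adjusted p = 0.0303, with 0.736% of genes called). It was also called without spleen doxycycline replicate 2 (-1.46, adjusted p = 0.0457) and without replicate 3 (-2.05, adjusted p = 0.0390). The erythroid sums were high in all 3 bone marrow doxycycline libraries, where Hlf was above the controls. In spleen doxycycline, Hlf was low in replicate 1, whose erythroid sum of 16420 TPM was near the controls. Replicate 2 had the lowest Hlf of all 16 libraries, at 16.2 CPM, and the highest erythroid sum, 227308 TPM. Replicate 3 was nearest to the controls in Hlf, and its erythroid sum was 112027 TPM. The part of the erythroid genes in the Hlf values was not tested.

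Secondary disease measured 36.6, 34.6, 32.4 and 61.8 CPM for Hlf. Replicates 1 to 3 lay below all spleen controls and replicate 4 above them. The log2 fold change against spleen control was -0.09 ± 0.26 (edgeR adjusted p = 0.919, 95% interval -0.65 to 0.46), and -0.35 without replicate 4 (adjusted p = 0.559). Against spleen doxycycline it was 0.78 ± 0.26 (adjusted p = 0.154) with overlapping groups. Without spleen doxycycline replicate 3 it was 1.15 and passed (adjusted p = 0.0290). Spleen control was above bone marrow control without overlap, by 0.54 ± 0.28 (adjusted p = 0.808), and this passed only with the 6 control libraries alone (adjusted p = 0.0193). The order of means was bone marrow doxycycline, spleen control, secondary disease, bone marrow control and spleen doxycycline, and the ranges of all neighbours in it overlapped.

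Myb (ENSMUSG00000019982, chromosome 10, 21124935 to 21160984, minus strand) encodes the factor that keeps blood progenitors proliferating and immature. In bone marrow it measured 222, 203 and 205 CPM in controls and 183, 157 and 181 CPM with doxycycline. The groups did not overlap, but the distance was small: the log2 fold change was -0.27 ± 0.27 (edgeR adjusted p = 0.635, 95% interval -0.85 to 0.30). In a model of the bone marrow libraries alone it passed (-0.26, edgeR adjusted p = 0.0472), where 36.6% of genes were called. In spleen the controls held 217, 197 and 210 CPM and the doxycycline libraries 174, 189 and 209 CPM. These overlapped, with a log2 fold change of -0.13 ± 0.27 (adjusted p = 0.925, 95% interval -0.70 to 0.45).

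Myb in secondary disease measured 205, 215, 224 and 80.3 CPM. The first 3 replicates lay within or just above the range of the controls and replicate 4 was the lowest library of all 16. The log2 fold change against spleen control was -0.20 ± 0.25 (edgeR adjusted p = 0.798) and 0.04 without replicate 4 (adjusted p = 0.923). Against spleen doxycycline it was -0.07 ± 0.25 (adjusted p = 0.915) and 0.17 without replicate 4 (adjusted p = 0.336). Without that library the group mean was 215 ± 9.08 CPM (SD, n = 3), compared with 181 ± 67.5 (SD, n = 4) with it. Between the control tissues the log2 fold change was -0.01 ± 0.27 (adjusted p = 1, 95% interval -0.59 to 0.56). The ranges of all neighbours in the order of Myb means overlapped.

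**Figure D4:**
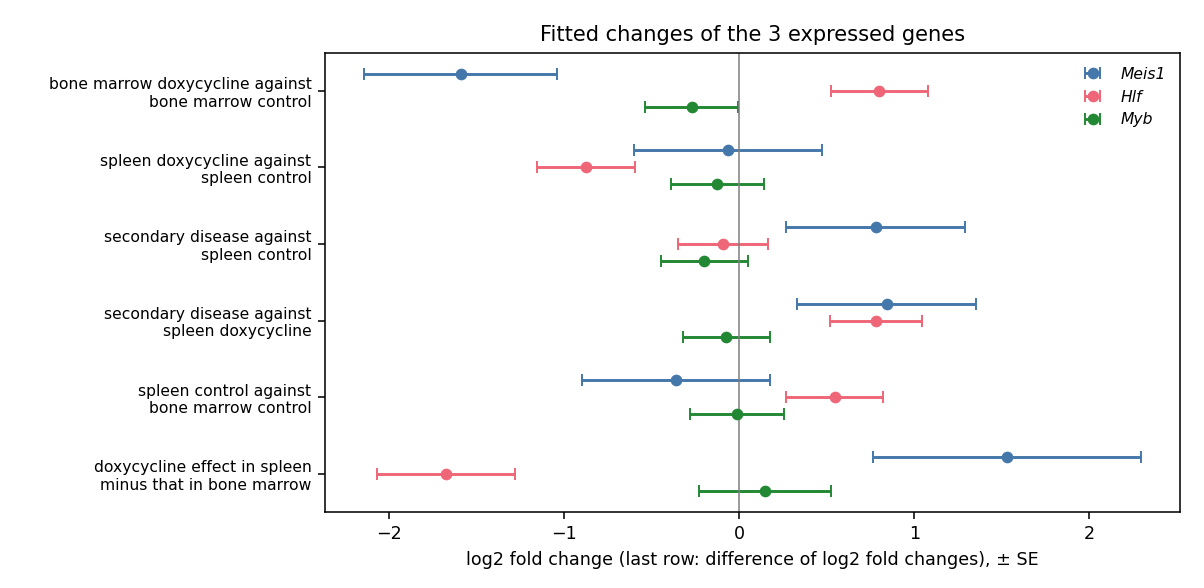
Log2 fold change ± approximate SE of Meis1, Hlf and Myb in 5 comparisons, and the difference of log2 fold changes between tissues in the last line, from the edgeR model of all 16 libraries. Meis1 and Hlf lie on opposite sides of 0 in bone marrow (-1.59 and 0.80), and none of the 18 values passed at an adjusted p under 0.05.

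In secondary disease replicate 4, other genes of the families described here also differed from the other 15 libraries, and they are named after their values were seen. Meis2 measured 56.9 TPM there and at most 12.3 TPM elsewhere. Meis3 measured 10.8 CPM compared with at most 2.83, and Pknox2 12.5 CPM compared with at most 0.195. The stem cell gene Ndn measured 65.6 CPM, against at most 0.128 in any other library, and the MYB target Sox4 17.8 against at most 0.879. The summed TPM of 12 cell cycle genes was 938 in that library and 1611 to 2428 in the others. The 9 macrophage genes summed to 78.6 TPM there and to at most 31.1 elsewhere, with Marco and Vsig4 at or under 0.44 TPM in every library. Most of that sum was C1qa, C1qb and C1qc, at 35.2, 13.4 and 22.7 TPM. Cd5l of the same list went the other way, at 0.173 CPM there and at least 0.515 CPM elsewhere. The part of these in the values of Myb, Hlf and Mycn was not tested.

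The partners of Meis1 were expressed although the HOX factors were not. Of the 10 other TALE genes, 7 had a group mean of at least 1 TPM in all 5 groups. Pbx2 and Pbx3 encode PBX partners, with group means of 24.2 to 28.4 TPM and 11.3 to 13.8 TPM. Pknox1, a relative of the MEIS genes, had group means of 9.98 to 15.0 TPM.

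Of the 9 TALE genes tested, 0 were called with edgeR in any of the 6 comparisons. At an unadjusted p under 0.05, edgeR counted 1 gene in bone marrow (lower), Pbx3 in spleen doxycycline and in secondary disease against spleen control (both higher), and Meis2 (higher) and Pbx4 (lower) in secondary disease against spleen doxycycline. DESeq2 called 1 gene in bone marrow (lower), beside 13.8% of all genes, and gave no adjusted p for 2 of the 9 genes. In a model of the bone marrow libraries alone, 4 were lower, among them Meis2, Meis3 and Tgif2. That model called 36.6% of all genes tested. The median log2 fold change of the tested TALE genes in bone marrow was -0.005, beside -0.02 for all genes tested.

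**Figure D5:**
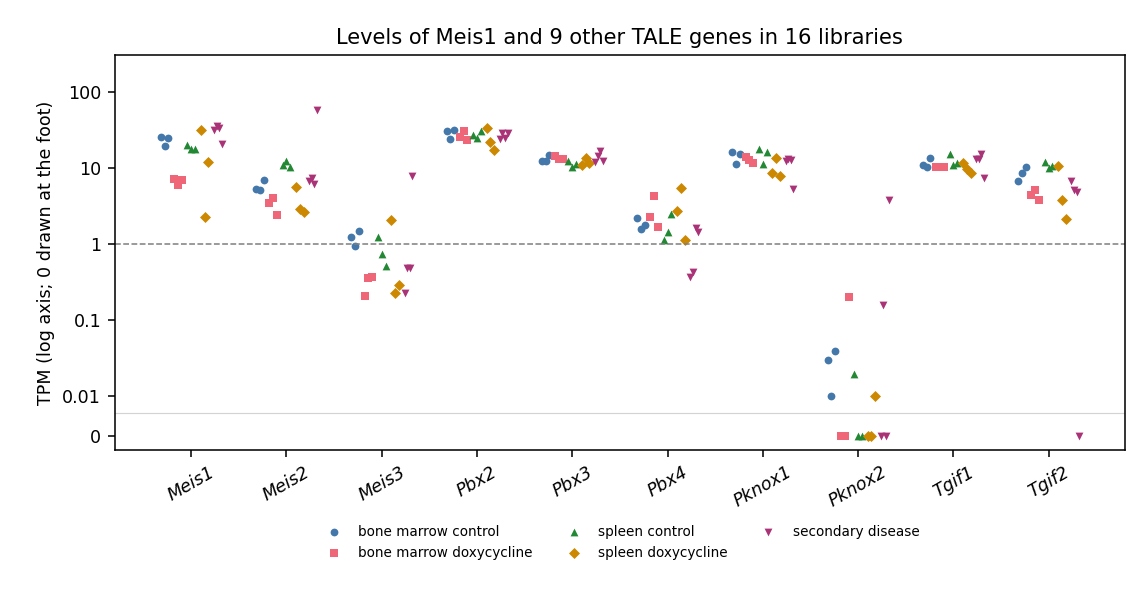
Level of Meis1 and 9 other TALE genes in every library, in TPM on a log axis with values of 0 drawn at the foot and a dashed line at 1 TPM. Pbx2, Pbx3 and Pknox1 lie above the line in every group mean, and secondary disease replicate 4 stands high for Meis2, Meis3 and Pknox2.

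The regulators that act on HOX transcription were present in these cells. Of 20 such genes, 17 had a group mean of at least 1 TPM in all 5 groups, led by Ash2l with 139 to 207 TPM, Ezh2 with 85.3 to 122 and Eed with 89.9 to 127 TPM. The other 3, the Cdx genes, stayed under 1 TPM in every group. In bone marrow 1 of the 17 tested rose with doxycycline and 0 fell, beside 6.57% of all genes called there. The 1 gene was Mllt3, a subunit of the super elongation complex and a fusion partner of KMT2A. It measured 50.1, 49.7 and 55.1 CPM in controls and 154, 204 and 174 CPM with doxycycline, a log2 fold change of 1.78 ± 0.43 (edgeR adjusted p = 0.0272). In spleen doxycycline Mllt3 held 41.4, 207 and 118 CPM compared with 44.4 to 51.1 in controls. There 0 of the 17 were called with edgeR, 2 had an unadjusted p under 0.05, and DESeq2 called Mllt3 and Aff4, beside 4.95% of all genes. Mllt3 was not called in bone marrow with any 1 of its 6 libraries left out (edgeR adjusted p 0.0733 to 0.114). The list had a median log2 fold change of -0.04 in bone marrow, beside -0.02 for all genes.

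Other stem cell and early progenitor genes gave a mixed picture in bone marrow. Of 25 genes, 14 were tested, 2 rose, 2 fell and 10 did not pass with edgeR, beside 6.57% of all genes called there. Gata2, a stem cell and mast cell factor, rose from 235 to 293 CPM in controls to 577 to 844 CPM (log2 fold change 1.36 ± 0.32, adjusted p = 0.0249). Lyl1, a bHLH factor close to TAL1, rose by 0.89 ± 0.17 (adjusted p = 0.0123). The ETS factor Erg fell from 70.0, 79.9 and 84.8 CPM to 9.60, 5.86 and 8.05 CPM, a log2 fold change of -3.32 ± 0.87 (adjusted p = 0.0377), and Etv6 fell by 1.72 ± 0.35 (adjusted p = 0.0153). With each of the 6 bone marrow libraries left out in turn, Lyl1 was called in 3 of 6 models and Gata2, Erg and Etv6 in 0 of 6 (edgeR adjusted p from 0.0501 for Etv6 to 0.158 for Erg). The median log2 fold change of the 14 was -0.60, beside -0.02 for all genes. The same 4 genes were called without secondary disease replicate 4, together with Kit (higher), Fli1 and Lmo2 (lower). In that model 17% of all genes tested were called in bone marrow. Other genes of the list were near 0, among them Procr and Hmga2.

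Of 17 MYB and MYC family genes and partners, 16 had a group mean of at least 1 TPM in all 5 groups. Myc was the most abundant, with group means of 120 to 265 TPM, while Mycl, like Mycn, stayed under 1 TPM in each group. In bone marrow 1 of the 16 tested rose with doxycycline and 0 fell with edgeR, beside 6.57% of all genes called there. The 1 gene was Mxd1, which competes with MYC for MAX, with a log2 fold change of 1.49 ± 0.37 (edgeR adjusted p = 0.0315). It measured 46.5, 43.9 and 62.4 CPM in controls and 135, 151 and 143 CPM with doxycycline, so the groups did not overlap. It was not called with any 1 of these 6 libraries left out (lowest edgeR adjusted p = 0.0703). The median of the 16 was 0.16, beside -0.02 for all genes. In spleen 0 were called with edgeR, 3 had an unadjusted p under 0.05 and DESeq2 called Mxd1 (higher) and Myc (lower), beside 4.95% of all genes.

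Genes described as targets of HOXA9, MEIS1 or MYB were read as a list of 15, of which 13 were tested. In bone marrow 1 rose, 3 fell and 9 did not pass with edgeR, beside 6.57% of all genes called there. The kinase gene Pim1 rose from 70.2, 40.9 and 63.2 CPM to 382, 420 and 411 CPM (log2 fold change 2.80 ± 0.45, adjusted p = 0.00552). Cdk6, a cell cycle kinase gene, fell by 1.35 ± 0.24 (adjusted p = 0.00799), Id2 fell by 2.39 ± 0.64 (adjusted p = 0.0414), and Erg, also in the stem cell list, fell as given above. With each bone marrow library left out in turn, Pim1 was called in 5 of 6 models, Cdk6 in 4 of 6 and Id2 in 0 of 6. The median of the 13 was -0.32, beside -0.02 for all genes. These genes have many other regulators, and the part of HOXA9, MEIS1 or MYB in their values was not tested. Flt3 and Cd34 of the same list were at or under 0.86 TPM in every library.

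In the remaining comparisons these 4 lists held a single call, Pim1, which was lower in secondary disease than in spleen doxycycline (log2 fold change -1.79 ± 0.39, edgeR adjusted p = 0.0485). In that comparison 0.928% of all genes tested were called. Pim1 measured 59.5, 71.3, 69.4 and 72.6 CPM in secondary disease and 88.5, 469 and 150 CPM in spleen doxycycline. The groups did not overlap, and replicate 2 stood far above the other libraries. With each of these 7 libraries left out in turn, Pim1 was called in 3 of 7 models. For secondary disease against spleen control, 0 genes of the 4 lists were called by edgeR or DESeq2. At an unadjusted p under 0.05 edgeR counted 1 of the HOX regulators, 3 of the stem cell genes, 0 of the MYB and MYC genes and 3 of the target list there.

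Over the 16 libraries, the genes with the most similar course to each expressed factor were found by Pearson's r of log2 CPM among 8470 genes. These r describe likeness only: libraries of a group share their treatment, and 5 libraries had high erythroid sums. For Meis1 they were Gyg (r = 0.985), Cap1 (r = 0.976) and Treml1 (r = 0.976), with n = 16. Treml1 ran from 0.319 CPM in spleen doxycycline replicate 2 to 76.2 in replicate 1. For Hlf they were Arl8b (r = 0.882), Scd2 (r = 0.848) and the cytokine gene Il13 (r = 0.840). For Myb they were Zfp961 (r = 0.965), Wdr36 (r = 0.964) and Slc25a30 (r = 0.962), which became 0.757, 0.785 and 0.862 over the 15 libraries without secondary disease replicate 4. Meis1 and Hlf did not follow each other across libraries (r = 0.05).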

How the data were processed

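Per the labels' protocols, RNA enriched with oligo-dT entered the NEBNext Ultra II kit. STAR, RSEM, Trim Galore, MultiQC and FastQC, with no version, and the build GRCm38 are named in the submitters' processing notes. The sources used here do not say whether counting used strand, so a gene and its antisense partner cannot be told apart: Gm26577 opposite Myb held 0.104% of the Myb counts. The authors deposited a table of expected counts per gene, which need not be whole, and a TPM file per library. Each of the 16 columns matched its own TPM file best in which genes were at 0. TPM values served for levels and entered no test.

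Expected counts were rounded and tested with edgeR 4.0.16 (R 4.3.3; filterByExpr, TMM, robust quasi-likelihood, 1 mean per group, all 16 libraries). This left 14435 genes. P-values are two-sided and adjusted by Benjamini-Hochberg over all genes of a comparison, with calls at an adjusted p under 0.05. The SE is the size of the log2 fold change divided by the root of F, and 95% intervals use the t quantile of the same degrees of freedom. The spread is thus shared by all groups, including the uneven spleen doxycycline libraries and secondary disease replicate 4. The edgeR test was checked on simulated counts with known changes.

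Members and lists were chosen with earlier results of these data known. The 9 members were always named, and of other lists up to 4 genes with the smallest p or the highest TPM. Some genes that this rule takes are not reported here. Alternatives were DESeq2 size factors, no filter, only the groups compared, DESeq2 1.42.0, the replicate number as a block, secondary disease replicate 4 left out, each library left out, and expression levels of 0.5 TPM, 2 TPM and 1 CPM. Same-numbered replicates of different groups deviated together in 5 of 30 pairs (r over 0.1; range -0.27 to 0.16). Most of these pairs join groups of different treatment or cohort, which could not share an animal. The check therefore cannot decide whether same-numbered marrow and spleen libraries came from the same mice. The model treats them as unpaired. The floor of 3 counts covers counting error only, and the 95% intervals cover the spread between libraries. Gene coordinates are from GENCODE M21 (GRCm38), promoters from RefSeq.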

Additional observations from a re-analysis of the deposited data

Results flagged for a closer look

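In secondary disease, the group of 4 libraries, 8 of the 9 factors had a library farther from the others than Dixon's 95% limit. Chance gives this in about 1 of 20 such groups for continuous values. Replicate 4 was the library concerned for Myb, where it was the lowest at 80.3 CPM, for Hlf, where it was the highest at 61.8 CPM, and for Mycn, where it was the highest at 3.30 CPM. It was also the highest for Mecom at 0.260 CPM and for Hoxa7 at 0.173 CPM. Replicate 1 was the highest for Hoxb4 at 0.207 CPM and for Hoxa10 at 0.0828 CPM, and replicate 2 for Hoxa9 at 0.0391 CPM. The values of Mecom, Hoxa7, Hoxb4, Hoxa10 and Hoxa9 rest on 1 to 5 counts in the library concerned, with the other 3 libraries at 0. A single library with counts always passes the limit in that case, so these 5 say nothing beyond the counts. Meis1 was the only factor with no such library, with replicate 4 lowest at 47.1 CPM.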

How the results depend on the processing

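Of 234 values of single factors under the alternatives, 210 kept their direction and their side of the threshold, 17 came to pass it and 7 turned in direction. Meis1 in spleen doxycycline against control ran from -0.94 to 0.45 with each library of its groups left out, and turned to 0.45 without spleen doxycycline replicate 2. Myb in secondary disease ran from -0.315 to 0.0447 against spleen control and from -0.208 to 0.169 against spleen doxycycline, both turning without secondary disease replicate 4. Between the control tissues Myb ran from -0.0373 to 0.0543, turning without bone marrow control replicate 1 and, at 0.0527, without spleen control replicate 2. The number of expressed factors was 3 under every alternative tried.

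No factor was called in the results. The share of all genes called in the same model is given in brackets. In bone marrow doxycycline against control, 3 were called with only the groups compared (36.6%) and 2 in DESeq2 (13.8%). Without secondary disease replicate 4 in the model, 1 was called (17%). That last setting also called 1 in spleen (5.37%) and 1 in the difference between tissues (0.736%), where DESeq2 called 1 (1.73%). Only the groups compared gave 1 for secondary disease against spleen control (3.07%) and 2 for the control tissues (14.7%). Leaving out in turn each library of the groups compared gave 0 to 1 for secondary disease against spleen doxycycline, 0 to 2 for the difference between tissues, and 0 in the other 4 comparisons.

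Counts of all genes called moved more. Without the filter, with only the groups compared, in DESeq2 and without secondary disease replicate 4, they were 349, 4929, 1996 and 2428 for bone marrow (949 in the results), 10, 1, 715 and 766 for spleen (107), 7, 1927, 304 and 190 for the control tissues (27) and 2, 23, 250 and 105 for the difference between tissues (7). Without the filter and in DESeq2 they were 134 and 756 for secondary disease against spleen control (293), and 26 and 866 against spleen doxycycline (134), where only the groups compared gave 0. With each library of the groups compared left out they ran from 23 to 232, 0 to 1364, 61 to 523, 0 to 1336, 0 to 12 and 0 to 645, for bone marrow, spleen, secondary disease against spleen control and against spleen doxycycline, control tissues and the difference. The cause was not tested.

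With the replicate number as a block, Hlf was the 1 factor called in bone marrow (adjusted p = 0.0409), and Myb turned to 0.0454 against spleen control and 0.171 against spleen doxycycline in secondary disease. Genes called with the replicate block were 1966 in bone marrow, 374 in spleen, 347 for secondary disease against spleen doxycycline, 117 for the control tissues and 39 for the difference. Of 30 same-numbered pairs, 6 correlated best with their own number, and replicate 4 stands alone in its block. Only marrow and spleen of the same treatment could share an animal. Among these, the own number was best for control replicate 3 (r = 0.131) and doxycycline replicates 2 (r = 0.0446) and 3 (r = 0.0554). It was not best for control replicates 1 and 2 or doxycycline replicate 1. Whether same-numbered marrow and spleen libraries came from the same animals was not settled by this. Depth limits the silent factors, with 6 counts or fewer in each library apart from Mycn in secondary disease replicate 4.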
